A study of Rattus norvegicus with 36 samples.

Results

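The genes described here are 32 named genes of cholesterol synthesis, sterol sensing, sterol transfer, high-density lipoprotein (HDL) handling and efflux, followed through a dose series of the flame retardant PBDE47, a brominated diphenyl ether, in rat liver. They were listed by name, with earlier results of these data known. The platform's annotation assigned at least 1 probe set to 29 of the 32 alone, with 51 probe sets in all, against 14217 genes and 31042 probe sets on the array as a whole. Hmgcs1, Soat2 and Npc1 had no probe set assigned to them here and carry no value below. Male Harlan Sprague Dawley rats, 7 weeks old at the start, were gavaged for 5 days in a row with corn oil, alone (vehicle) or carrying PBDE47 at a top dose of 485 mg/kg, then 48.5, then 4.85, then 0.485 and at the least 0.0485 mg/kg, and the left liver lobe was taken the day after the last dose. Each of the 6 groups held 6 rats with 1 array each. All groups thus share the strain, sex, age, gavage and oil, and differ in the dose named. The comparison with vehicle asks at which dose hepatic transcripts first move.

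Liver cells build cholesterol from acetyl units through mevalonate, the isoprenoids, squalene and a chain of sterol intermediates. The transcription factor SREBP-2 switches most of these enzymes on together. It is held in the endoplasmic reticulum by Scap and the Insig proteins while sterol is plentiful, and Scap escorts it to the Golgi for cleavage when sterol is scarce. Oxysterols act through the receptor LXR on efflux genes such as Abca1. The liver also takes up HDL cholesterol through Scarb1, turns cholesterol into bile acids and secretes Lcat, the plasma enzyme that esterifies the cholesterol of HDL.

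The promoters of the genes on which the results turn are shown first, because SREBP-2 acts at sterol regulatory elements and E-boxes, usually with the factor NF-Y at a CCAAT box nearby. Windows from 250 bases before to 50 bases after the gene start came from RefSeq, build GRCr8, and 26 of the 32 genes were matched. The motifs searched were CACNCCAC, CCAAT and CACGTG on both strands. Capitals mark each match, and no match says only that these letters are not in the window. Idi1, Msmo1 and Hsd17b7 are synthesis genes that varied closely together between animals, Insig1 is the sterol sensor with matches to all of the motifs, and Sc5d, Scap and Lcat are genes that differed from vehicle at both upper doses.
Idi1 (chr17:66547475-66547774, minus strand): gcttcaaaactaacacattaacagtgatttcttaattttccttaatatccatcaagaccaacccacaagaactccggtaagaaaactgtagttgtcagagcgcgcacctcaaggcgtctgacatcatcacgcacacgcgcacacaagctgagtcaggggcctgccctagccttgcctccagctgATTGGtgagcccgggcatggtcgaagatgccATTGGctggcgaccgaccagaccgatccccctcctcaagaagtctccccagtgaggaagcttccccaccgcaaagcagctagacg
Msmo1 (chr16:29746863-29747162, plus strand): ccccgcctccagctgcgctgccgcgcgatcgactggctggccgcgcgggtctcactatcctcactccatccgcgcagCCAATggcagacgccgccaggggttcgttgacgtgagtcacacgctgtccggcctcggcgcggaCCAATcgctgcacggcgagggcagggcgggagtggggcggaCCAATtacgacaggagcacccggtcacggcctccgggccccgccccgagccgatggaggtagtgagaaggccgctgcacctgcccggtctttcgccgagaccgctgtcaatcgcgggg
Hsd17b7 (chr13:84722705-84723004, minus strand): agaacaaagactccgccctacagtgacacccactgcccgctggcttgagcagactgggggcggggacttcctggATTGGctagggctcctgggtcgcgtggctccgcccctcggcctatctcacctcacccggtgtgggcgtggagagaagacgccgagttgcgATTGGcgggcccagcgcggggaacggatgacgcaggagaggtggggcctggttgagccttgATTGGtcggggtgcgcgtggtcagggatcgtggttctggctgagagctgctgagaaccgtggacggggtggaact
Insig1 (chr4:8057720-8058019, minus strand): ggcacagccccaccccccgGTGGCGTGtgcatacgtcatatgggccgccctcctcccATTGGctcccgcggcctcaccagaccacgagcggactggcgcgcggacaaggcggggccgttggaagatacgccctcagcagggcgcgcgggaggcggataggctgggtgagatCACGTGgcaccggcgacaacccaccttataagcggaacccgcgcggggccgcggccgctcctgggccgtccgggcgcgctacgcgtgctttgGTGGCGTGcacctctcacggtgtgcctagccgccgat
Sc5d (chr8:51538228-51538527, minus strand): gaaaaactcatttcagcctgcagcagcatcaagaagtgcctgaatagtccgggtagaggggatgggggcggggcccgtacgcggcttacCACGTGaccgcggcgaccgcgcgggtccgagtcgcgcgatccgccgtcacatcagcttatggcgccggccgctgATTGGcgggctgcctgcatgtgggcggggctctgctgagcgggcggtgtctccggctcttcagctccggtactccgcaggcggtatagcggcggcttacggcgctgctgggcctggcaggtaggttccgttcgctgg
Scap (chr8:119184188-119184487, plus strand): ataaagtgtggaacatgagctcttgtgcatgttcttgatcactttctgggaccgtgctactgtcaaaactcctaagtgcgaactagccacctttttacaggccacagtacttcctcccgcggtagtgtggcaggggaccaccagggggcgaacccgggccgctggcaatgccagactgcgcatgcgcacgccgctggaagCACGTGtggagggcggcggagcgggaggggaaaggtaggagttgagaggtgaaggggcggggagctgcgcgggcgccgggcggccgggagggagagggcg
Lcat (chr19:50748015-50748314, minus strand): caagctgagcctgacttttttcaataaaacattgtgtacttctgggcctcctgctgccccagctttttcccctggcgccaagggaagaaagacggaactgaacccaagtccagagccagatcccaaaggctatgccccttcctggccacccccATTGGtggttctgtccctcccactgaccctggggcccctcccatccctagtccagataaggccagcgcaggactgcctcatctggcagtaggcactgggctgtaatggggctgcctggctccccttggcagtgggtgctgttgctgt

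CCAAT was found in 20 of 26 member windows, or 76.9%, against 37.7% of 27457 RefSeq windows of the same length and 37.3% of the 11733 windows of genes with a probe set on this array. Among the 16 synthesis genes with a window, 13 held it. Msmo1 and Hsd17b7 each held 3 copies, and Mvk and Nsdhl held 5. CACNCCAC was found in 3 of 26, Acat2, Ebp and Insig1, or 11.5% against 5.7% of all windows and 5.91% of those of genes on this array. Insig1 held it 2 times. CACGTG was found in 4 of 26, Sc5d, Scap, Insig1 and Abca1, or 15.4% against 6.65% of all windows and 8.92% of those of genes on this array. These matches describe the sequence and are neither mapped binding sites nor an account of the values that follow.

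All values are log2 RMA signals, on which a difference of 1 is a doubling, and levels are compared only within a probe set. A gene was called when its adjusted p fell below 0.05 in limma's moderated test with Benjamini-Hochberg adjustment over 31042 probe sets. Array medians ran from 5.31 to 5.38 over the 36 arrays. One array, 4.85 mg/kg replicate 6, had the lowest mean correlation with its own group (0.991), and leaving it out of the fit left each count of called members as it was. The hepatocyte markers, which define the labelled tissue, lay above the array medians in 7 of 7 measured genes. At 485 mg/kg, 4 of these 7 were called lower (median change of the 7 -0.25), with a mean over the list of -0.31 to -0.12 per animal, relative to the vehicle mean, against -0.16 to 0.15 in vehicle, while Alb, albumin, was at -0.00 (adjusted p = 0.954 in limma). Kupffer cell markers were called lower for 4 of 7 (median -0.40), with the same mean at -0.72 to -0.15 in the 485 mg/kg animals against -0.06 to 0.15 in vehicle. Sinusoidal endothelial markers were called lower for 2 of 4, stellate markers for 0 of 6, T and NK cell markers for 1 of 6 and erythroid markers for 2 of 2, while 1 of 3 cholangiocyte markers, Epcam, was called higher. At 485 mg/kg, 9.43% of the 14217 genes with 1 probe set each were called lower and 11.5% higher. In whole liver, fewer cells of a type and less RNA per cell cannot be told apart. The part of these markers in the results below was not tested. The limma p-values set a difference between groups against the spread between animals within groups, which with 1 array each includes variation between arrays.

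Members were called at the 2 upper doses, in both directions. No member was called against vehicle at 0.0485, 0.485 or 4.85 mg/kg. At 48.5 mg/kg, 4 of 29 were called: Fdft1 and Sc5d, both enzymes of sterol synthesis, were higher, and Scap and Lcat were lower. At 485 mg/kg, 6 of 29 were called: Fdft1 and Sc5d were again higher, and Scap, Lcat, Scarb1 and Abca1 were lower. The changes were small, from 1.15-fold to 1.76-fold, and no member passed limma's test for a change beyond 1.5-fold.

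Against the array as a whole these counts read as follows. At 0.0485 and 0.485 mg/kg, 0% of 31042 probe sets were called. The limma test gave 2 and 7 of 29 members an unadjusted p below 0.05 at these doses, or 6.9% and 24.1%, beside 4.89% and 4.45% of probe sets (1519 and 1381). At 4.85 mg/kg, 0.0193% of probe sets were called, and 3 members (10.3%) had an unadjusted p below 0.05, beside 6.46% of probe sets (2006). Members share animals and vary together, so these shares carry no test. At 48.5 mg/kg the 2 of 29 members called higher and the 2 called lower, 6.9% each, stand beside 2.57% and 0.821% of probe sets, and beside 4.03% and 1.08% of the 14217 genes taken, like the members, by 1 probe set each. At 485 mg/kg the 2 called higher (6.9%) stand beside 7.81% of probe sets and 11.5% of genes, and the 4 called lower (13.8%) beside 7.22% and 9.43%. Among probe sets brighter than the median probe set, 13.7% were called higher at 485 mg/kg and 12.5% lower. The F test over all 5 doses called 4 of 29 members (13.8%), Sc5d, Scap, Scarb1 and Lcat, close to the 13.0% of probe sets it called. The median change of the 29 members at 485 mg/kg was -0.00, beside -0.01 for all probe sets. How many probe sets of the array separated groups without overlap was not counted, so such separations below describe single genes.

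**Figure D1:**
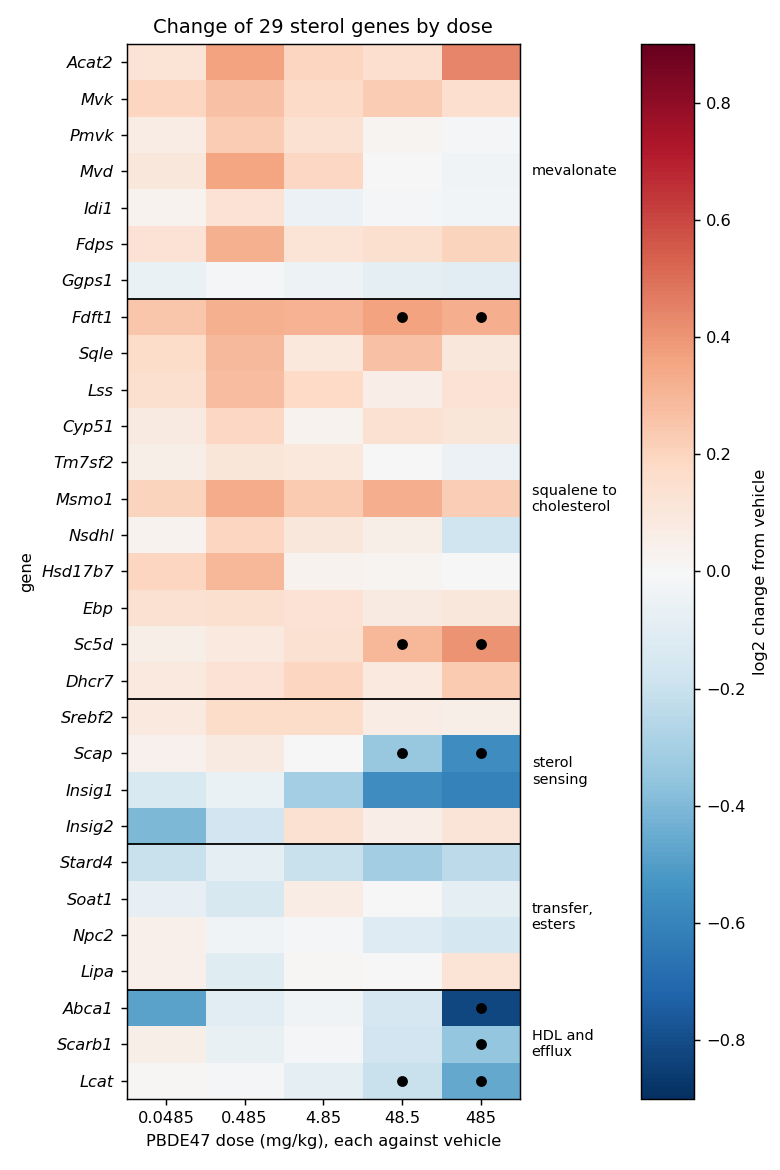
Each cell is the log2 change of 1 gene (row) at 1 dose of PBDE47 in mg/kg (column) from vehicle, from 6 animals per group. Red is higher and blue lower, dots mark adjusted p below 0.05 in limma, and horizontal lines divide the roles; dots appear only at 48.5 mg/kg (4 genes) and 485 mg/kg (6 genes).

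The first stretch of the pathway, from acetyl units to the isoprenoid pyrophosphates, did not yield a called gene at any dose in the fit over all arrays. Its 7 measured members were Acat2, which condenses acetyl-CoA, Mvk, Pmvk and Mvd, which phosphorylate and decarboxylate mevalonate, Idi1, the isomerase, and Fdps and Ggps1, which join isoprene units. At 485 mg/kg their changes ran from -0.10 (Ggps1) to 0.44 (Acat2), with a median of -0.01. Acat2 was at 9.17 to 10.17 in vehicle (median 9.60) and at 9.35 to 10.69 at 485 mg/kg (median 9.99). The groups overlapped, and the change of 0.44 ± 0.19 (SE) had an adjusted p of 0.126 in limma. Acat2 was called at 485 mg/kg with the replicate number as a block, without vehicle replicate 6 and without 485 mg/kg replicate 2. Ggps1 had a mean of 5.94 over the 36 arrays, not far above the array medians.

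The second stretch, from squalene to cholesterol, held the members called higher. Of its 11 measured members, 2 were called higher at 48.5 and at 485 mg/kg and 0 lower, and the median change was 0.09 and then 0.11. Beside them, 4.03% of genes with 1 probe set each were called higher at 48.5 mg/kg and 11.5% at 485 mg/kg.

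Fdft1, squalene synthase, makes the first committed intermediate of the sterol branch. Its level was 10.07 to 10.80 in vehicle (median 10.23), 10.42 to 10.80 at 0.0485 (10.57), 10.45 to 10.84 at 0.485 (10.68 as the median), 10.50 to 10.87 at 4.85 (10.63), 10.34 to 10.97 at 48.5 (10.70) and 10.38 to 10.87 at 485 mg/kg (10.73). The vehicle group was the lowest but its highest animal reached into every dosed group. The change was 0.36 ± 0.10 at 48.5 mg/kg (1.29-fold, adjusted p = 0.0442 in limma) and 0.33 ± 0.10 at 485 mg/kg (1.25-fold, adjusted p = 0.0281), while 0.0485, 0.485 and 4.85 mg/kg lay 0.25, 0.32 and 0.32 above vehicle without a call. The unadjusted p in limma was 0.00442 at 0.485, 0.00467 at 4.85 and 0.00351 at 485 mg/kg. Which of these doses was called thus rests on the adjustment over all probe sets, not on a larger change. Between 485 and 0.485 mg/kg Fdft1 differed by 0.01 (adjusted p = 0.975 in limma). A second Fdft1 probe set gave 0.33 at 48.5 mg/kg (adjusted p = 0.105) and 0.32 at 485 mg/kg (adjusted p = 0.0461). The calls are fragile: at 485 mg/kg the call was lost without any 1 of vehicle replicates 1, 2, 4 or 5 or 485 mg/kg replicates 1, 3, 4 or 6 (adjusted p up to 0.0888), and at 48.5 mg/kg without any 1 of vehicle replicates 1, 2, 4 or 5 or 48.5 mg/kg replicates 1, 2, 3, 4 or 6 (up to 0.139). The F test over doses did not call it (adjusted p = 0.0972).

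Sc5d, lathosterol oxidase, introduces a double bond into the sterol ring near the end of the pathway. Its level was 11.06 to 11.43 in vehicle (median 11.25), 11.19 to 11.57 at 0.0485 (11.28), 11.28 to 11.44 at 0.485 (11.36), 11.20 to 11.48 at 4.85 (11.42), 11.34 to 11.75 at 48.5 (11.59) and 11.52 to 11.76 at 485 mg/kg (11.68). Every animal at 485 mg/kg lay above every vehicle animal, while 48.5 mg/kg overlapped vehicle. The change was 0.30 ± 0.07 at 48.5 mg/kg (1.23-fold, adjusted p = 0.00836 in limma) and 0.41 ± 0.07 at 485 mg/kg (1.32-fold, adjusted p = 3.0e-05). Both other Sc5d probe sets were positive but not called at 485 mg/kg (0.21, adjusted p = 0.0711, and 0.15, adjusted p = 0.354), nor at 48.5 mg/kg (0.21, adjusted p = 0.162, and 0.21, adjusted p = 0.284). With the probe sets averaged, the 48.5 mg/kg call was lost (adjusted p = 0.0619).

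The other 9 enzymes of this stretch did not pass at either dose. At 485 mg/kg their changes ran from -0.18 for Nsdhl, which with its partners strips methyl groups from the sterol ring, to 0.24 for Dhcr7, which catalyses a final reduction. Sqle, squalene epoxidase and a rate-limiting step, stood at 0.10 ± 0.16, Lss, which closes the sterol rings, at 0.13 ± 0.15 (-0.02 in its second probe set), and Cyp51, the lanosterol demethylase, at 0.11 ± 0.10. Msmo1, the methyl sterol oxidase, stood at 0.22 ± 0.12 and was called at both doses without vehicle replicate 6, Ebp, the sterol isomerase, at 0.10 ± 0.08, Tm7sf2, a sterol reductase, at -0.06 ± 0.12 and Hsd17b7, a ketosteroid reductase, at -0.00 ± 0.15. Nsdhl ranged from 11.23 to 11.79 in vehicle (median 11.41), 11.45 to 11.82 at 0.485 mg/kg (11.70) and 10.91 to 11.59 at 485 mg/kg (11.32). Its change of -0.18 ± 0.10 from vehicle was not called (adjusted p = 0.266 in limma), but its second probe set fell by 0.32 (adjusted p = 0.0284).

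Most synthesis genes had their highest mean at 0.485 mg/kg, though none was called there. Of 18 synthesis members, 13 had their highest group mean at 0.485 mg/kg and 3 at 485 mg/kg, while 11 had their lowest in vehicle and 6 at 485 mg/kg. At 0.485 mg/kg, 6 of 7 mevalonate members were above vehicle (median 0.27) and 11 of 11 squalene-to-cholesterol members were (median 0.19), beside 49.9% of all probe sets with a median of 0.00. The 11 of 11 were also above vehicle at 0.0485, 4.85 and 48.5 mg/kg (medians 0.14, 0.13 and 0.09), so that count is not particular to 0.485 mg/kg. These comparisons share the same vehicle animals, so the counts at the doses are not independent of each other. Fdps at 0.32 ± 0.11, Msmo1 at 0.34 ± 0.12, Mvd at 0.36 ± 0.15 and Hsd17b7 at 0.30 ± 0.15 were among the larger differences, each with an adjusted p of 1.00 in limma. The median of the 18 genes in each animal, relative to the vehicle mean, ran from -0.27 to 0.34 in vehicle and from 0.11 to 0.40 at 0.485 mg/kg. It ran from -0.04 to 0.29 at 0.0485, from -0.07 to 0.41 at 4.85, from -0.08 to 0.48 at 48.5 and from -0.21 to 0.34 at 485 mg/kg. The 6 animals at 0.485 mg/kg were all above 0, but the groups overlapped, since 1 vehicle animal, replicate 6, reached 0.34. Animals numbered 6 were the highest in 4 of the 6 groups. The genes share their animals and varied together, so these counts are not independent.

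**Figure D2:**
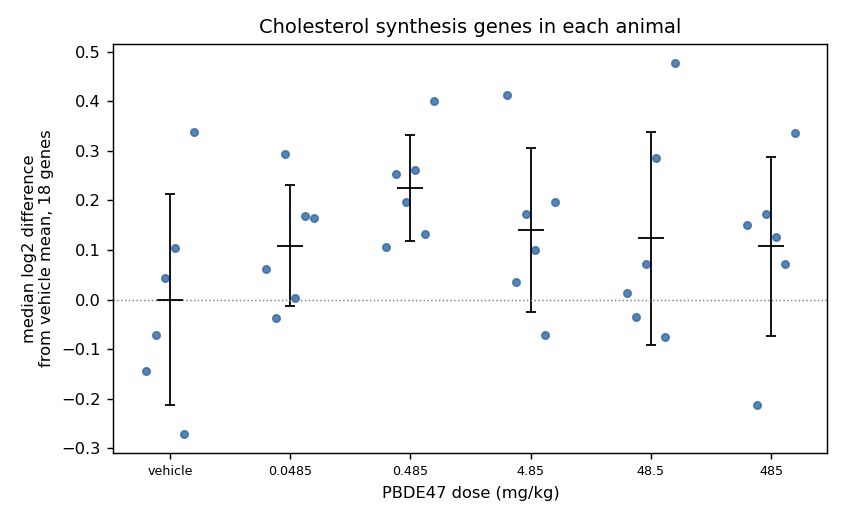
Each point is 1 animal: the median over 18 synthesis genes of the log2 difference from the vehicle mean (vertical) by dose of PBDE47 in mg/kg (horizontal), with the mean and SD of each group of 6. Vehicle spans -0.27 to 0.34 and contains most of the dosed animals; the 0.485 mg/kg animals lie between 0.11 and 0.40.

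A direct comparison of 485 with 0.485 mg/kg called 5 of 29 members. Sc5d was higher (3.45% of members), beside 7.07% of probe sets and 10.2% of genes with 1 probe set each. Nsdhl, Scap, Scarb1 and Lcat were lower (13.8%), beside 6.67% of probe sets and 8.64% of genes. Nsdhl differed by -0.37 ± 0.10 (adjusted p = 0.00801 in limma), and its second probe set by -0.44 (adjusted p = 0.00213). Sc5d differed by 0.31 ± 0.07 (adjusted p = 9.7e-04), but its other probe sets by 0.17 (adjusted p = 0.189) and 0.06 (adjusted p = 0.80), and the call was lost with its probe sets averaged. Abca1 was not called there (-0.72, adjusted p = 0.0683), while its 3 other probe sets were, at -0.43 (adjusted p = 0.0201), -0.80 (adjusted p = 0.0344) and -0.44 (adjusted p = 0.0282). This comparison and the one with vehicle share the 485 mg/kg animals.

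Between animals of the same dose the synthesis genes varied together. Values were centred on each group's mean, and across the 153 pairs of the 18 genes the correlation over 36 animals had a median of 0.62 and ran from -0.16 to 0.92, with 150 pairs positive. These are descriptions over shared arrays. Sqle was most alike to Hsd17b7 (0.92), Msmo1 (0.90), Idi1 (0.83) and Lss (0.82), and least to Ggps1 (0.01). Their windows hold 3 (Hsd17b7, Msmo1), 2 (Idi1) and 1 (Lss) CCAAT matches. Mvk and Nsdhl, with 5 each, were at 0.705 and 0.52, and Acat2 (0.73), Cyp51 (0.72) and Dhcr7 (0.40) have none. Sqle itself had no window, and the part of these matches in the correlations was not tested.

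Sqle was then set against 7 other members in a permutation test within dose groups (100000 permutations, two-sided, adjusted over the 7 pairs). With Idi1, Pearson's r was 0.83 (permutation p = 1e-05, the smallest they can give, adjusted 7e-05) and Spearman's rho 0.78 (permutation p = 2e-05, adjusted 0.00014), and r was 0.77 without the 2 animals farthest from the Sqle median, vehicle replicates 5 and 6. With Srebf2, which encodes SREBP-2, r was 0.47 (permutation p = 0.0053, adjusted 0.0124) and rho 0.66 (permutation p = 8e-05, adjusted 0.00028), and r was 0.60 without those animals. With Insig2 the relation was inverse: r was -0.56 (permutation p = 0.00076, adjusted 0.00266) and rho -0.58 (permutation p = 0.00086, adjusted 0.00201), and r was -0.52 without them. With Insig1, r was 0.41 (permutation p = 0.020, adjusted 0.0350), but rho was 0.35 (permutation p = 0.0466, adjusted 0.0815) and r was 0.31 without those animals. With each replicate number's mean removed too, a step added after seeing the data, r was 0.79 for Idi1, 0.43 for Srebf2, -0.46 for Insig2 and 0.31 for Insig1, with no test. Stard4 (r = 0.31, permutation p = 0.0927, adjusted 0.130; rho = 0.21, permutation p = 0.254, adjusted 0.316), Abca1 (r = 0.01, permutation p = 0.928, adjusted 0.928; rho = 0.10, permutation p = 0.580, adjusted 0.580) and Soat1 (r = 0.08, permutation p = 0.679, adjusted 0.792; rho = 0.20, permutation p = 0.271, adjusted 0.316) did not pass. Animals high in Sqle thus tended to be high in Idi1 and low in Insig2, with no test passed for Abca1.

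**Figure D3:**
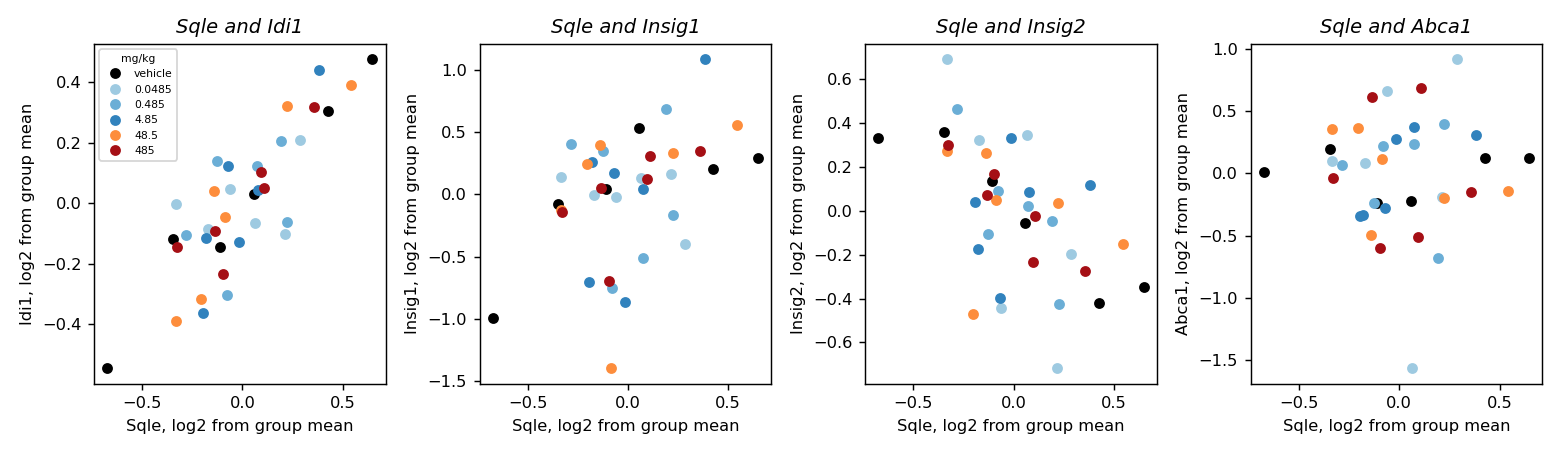
Each point is 1 of 36 animals, with Sqle (horizontal) and Idi1, Insig1, Insig2 or Abca1 (vertical) as log2 differences from the animal's dose-group mean, coloured by dose in mg/kg. The cloud rises for Idi1 (r = 0.83), falls for Insig2 (r = -0.56) and shows no slope for Abca1 (r = 0.01).

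Among the 4 sterol-sensing genes, Scap fell and the others were not called. Scap was at 8.40 to 8.65 in vehicle (median 8.56), 8.49 to 8.74 at 0.0485 (8.57), 8.50 to 8.82 at 0.485 (8.57), 8.36 to 8.74 at 4.85 (8.53), 7.97 to 8.37 at 48.5 (8.23) and 7.76 to 8.20 at 485 mg/kg (7.96). All animals at 48.5 and at 485 mg/kg lay below all vehicle animals. The change was -0.34 ± 0.08 at 48.5 mg/kg (1.27-fold lower, adjusted p = 0.0115 in limma) and -0.56 ± 0.08 at 485 mg/kg (1.48-fold lower, adjusted p = 2.2e-06), and it was -0.64 ± 0.08 between 485 and 0.485 mg/kg (adjusted p = 1.7e-07). A dim second Scap probe set, with a mean of 5.42, was at -0.12 at 48.5 mg/kg (adjusted p = 0.586) and -0.25 at 485 mg/kg (adjusted p = 0.0651), neither of them called.

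Insig1, itself an SREBP target that retains Scap, was at 10.45 to 11.97 in vehicle (median 11.57) and at 10.14 to 11.18 at 485 mg/kg (10.92). Its change of -0.61 ± 0.29 was as large as that of Scap, but its spread was wider, the groups overlapped and the adjusted p was 0.181 in limma. At 48.5 mg/kg it stood at -0.56, with replicate 5 at 9.49 and the other 5 animals at 10.76 to 11.44. Insig2, which also retains Scap, stood at 0.11 ± 0.18 at 485 mg/kg and at -0.40 at 0.0485 mg/kg, and Srebf2 at 0.06 ± 0.08 at 485 mg/kg, none of them called.

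The 4 measured genes of sterol transfer, esters and the lysosome had no call at any dose. Npc2, which carries sterol out of lysosomes, stood at -0.16 ± 0.06 at 485 mg/kg (adjusted p = 0.0693 in limma). It was called with the dimmer probe sets left out, with quantile normalization, without vehicle replicate 4 and without 485 mg/kg replicate 1. Lipa, the lysosomal acid lipase, stood at 0.12 ± 0.09 and Stard4, a cytosolic sterol carrier, at -0.24 ± 0.16. Soat1, which esterifies cholesterol, had a mean of 4.03, below the lowest array median, so its value of -0.09 ± 0.10 is read from a dim signal.

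The 3 genes of HDL and efflux were all called lower at 485 mg/kg, with a median change of -0.46. At 48.5 mg/kg 1 of the 3 was called lower. Of the 14217 genes with 1 probe set each, 9.43% were called lower at 485 mg/kg and 1.08% at 48.5 mg/kg.

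Lcat had the smallest standard error and the smallest adjusted p of the 29 members at 485 mg/kg. Its level was 12.73 to 12.85 in vehicle (median 12.77), 12.72 to 12.85 at 0.0485 (12.79), 12.70 to 12.83 at 0.485 (12.76), 12.66 to 12.76 at 4.85 (12.69), 12.54 to 12.63 at 48.5 (12.58) and 12.26 to 12.40 at 485 mg/kg (12.32). All animals at 48.5 mg/kg lay below all vehicle animals, and all at 485 mg/kg below all at 48.5 mg/kg. The change was -0.20 ± 0.04 at 48.5 mg/kg (1.15-fold lower, adjusted p = 0.00178 in limma) and -0.46 ± 0.04 at 485 mg/kg (1.38-fold lower, adjusted p = 2.6e-11). At 4.85 mg/kg it stood at -0.08 ± 0.04, which was not called (adjusted p = 0.759). Lcat is made by hepatocytes, of whose markers Fgb fell by 0.31, Apoa1 by 0.31 and Ttr by 0.11 at 485 mg/kg. The 7 measured hepatocyte markers ran from -0.54 to -0.00 there, with 3 not called, and their part in the Lcat value was not tested. In the direct comparison of 485 with 48.5 mg/kg, Lcat was the only member whose brightest probe set was called (-0.26 ± 0.04, adjusted p = 2.1e-05). There 2.31% of probe sets were called lower and 2.55% higher, and 3.19% and 4.03% of genes with 1 probe set each.

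Scarb1, the HDL receptor SR-BI, was at 8.45 to 8.79 in vehicle (median 8.66), 8.39 to 8.89 at 0.0485 (8.71), 8.45 to 8.67 at 0.485 (8.55), 8.40 to 8.86 at 4.85 (8.60), 8.36 to 8.53 at 48.5 (8.44) and 8.12 to 8.45 at 485 mg/kg (8.23). The highest animals at 485 mg/kg touched the lowest in vehicle. The change at 485 mg/kg was -0.35 ± 0.07 (1.27-fold lower, adjusted p = 7.0e-04 in limma), and a second probe set gave -0.35 (adjusted p = 9.0e-04). At 48.5 mg/kg it stood at -0.17 (adjusted p = 0.220).

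Abca1, the pump that hands cholesterol to apolipoprotein A-I, had the widest spread of these 3 genes. Its level was 10.04 to 10.48 in vehicle (median 10.35), 8.23 to 10.71 at 0.0485 (9.88), 9.50 to 10.58 at 0.485 (10.33), 9.90 to 10.62 at 4.85 (10.24), 9.63 to 10.49 at 48.5 (10.11) and 8.86 to 10.14 at 485 mg/kg (9.37). The highest animals at 485 mg/kg overlapped the lowest in vehicle. The change was -0.82 ± 0.27 (1.76-fold lower, adjusted p = 0.0315 in limma). Of the other 3 Abca1 probe sets, 2 were called lower (-0.89, adjusted p = 0.0157, and -0.47, adjusted p = 0.0163) and 1 was not (-0.30, adjusted p = 0.127). Between 485 and 48.5 mg/kg the brightest set stood at -0.67 (adjusted p = 0.175), 2 others were called lower (-0.44, adjusted p = 0.0361, and -0.47, adjusted p = 0.0436), and averaging the probe sets called Abca1. At 0.0485 mg/kg the sets disagreed in sign, the brightest at -0.48 and another at 0.36, with none called. The call was lost without any 1 of vehicle replicates 1, 4, 5 or 6 or 485 mg/kg replicates 2, 3, 4 or 6 (adjusted p up to 0.0936). Abca1 is also expressed in macrophages, and Kupffer cell markers such as Cd163 (-0.54) and Clec4f (-0.62) were called lower in the same livers, whose part in the value was not tested.

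**Figure D4:**
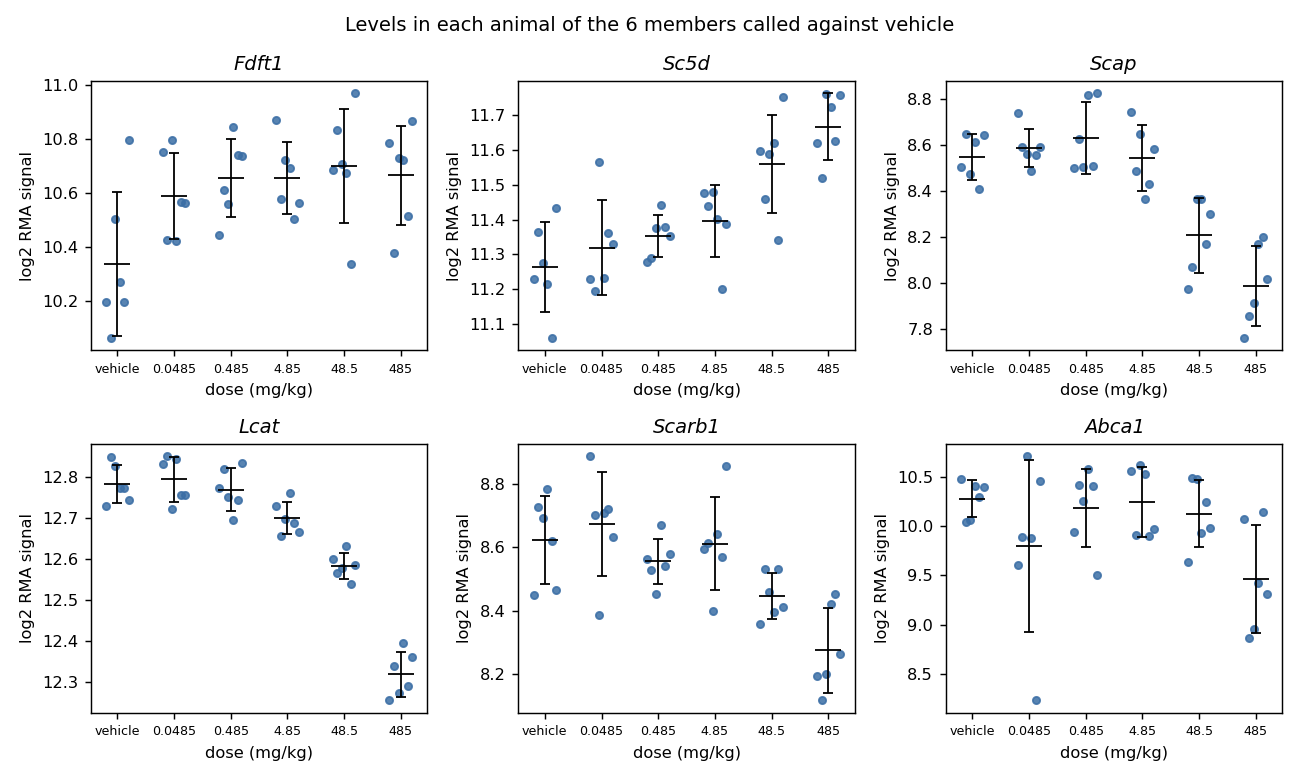
Each point is the log2 RMA signal of 1 animal (vertical, own scale for each gene) by dose of PBDE47 in mg/kg (horizontal), with the mean and SD of each group of 6. Lcat and Scap step down at 48.5 and 485 mg/kg, Sc5d steps up, Scarb1 and Abca1 are lowest at 485 mg/kg, and Fdft1 is lowest in vehicle.

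Genes beside the members in the same pathways were read from lists of function that were also drawn up with earlier results of these data known. Of 33 related genes measured, 9 were called higher and 6 lower at 485 mg/kg, or 27.3% and 18.2%, beside 11.5% and 9.43% of the 14217 genes with 1 probe set each. At 485 mg/kg, the list of SREBP processing and further SREBP targets had 2 of 8 measured genes called higher and 1 lower, with a median change of 0.08. Tmem97, a sterol-regulated membrane protein, was 0.49 ± 0.08 higher (adjusted p = 1.1e-05 in limma) and Rnf139, a ubiquitin ligase of the sterol-sensing machinery, 0.45 ± 0.07 higher (adjusted p = 8.7e-06). Srebf1, the lipogenic SREBP gene and an LXR target, fell by 0.56 ± 0.20 (adjusted p = 0.0453), a call lost in 7 of 12 fits that left out 1 array (without vehicle replicates 2, 3, 4 or 6 or 485 mg/kg replicates 2, 3 or 4).

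Other branches of the isoprenoid pathway had 4 of 7 genes called higher and 0 lower at 485 mg/kg, with a median of 0.17. This count and those of the lists that follow stand beside 11.5% of genes called higher and 9.43% lower at that dose. Dhdds, which makes dolichol chains, rose from a mean of 6.48 in vehicle to 7.25 (0.77 ± 0.11, 1.71-fold, adjusted p = 3.2e-06 in limma). Coq2 and Pdss2, both of ubiquinone synthesis, were 0.46 ± 0.07 (adjusted p = 1.5e-05) and 0.24 ± 0.05 (adjusted p = 5.9e-04) higher. For each of these 3 genes, all animals at 485 mg/kg lay above all vehicle animals, a separation not counted over the array.

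Of 7 LXR and oxysterol genes, 0 were called higher and 2 lower at 485 mg/kg, with a median of -0.01. Abcg1, a sterol exporter, stood at -0.37 ± 0.10 (adjusted p = 0.0053 in limma), and Mylip, a ligase that degrades lipoprotein receptors, at -0.38 ± 0.11 (adjusted p = 0.0135). Both lay below vehicle in every animal. In 10 alternatives that kept all the compared arrays, the Abcg1 change ran from -0.37 to -0.20 and stayed called in 9.

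Other sterol transfer and uptake genes had 1 of 6 called higher and 2 lower at 485 mg/kg, with a median of -0.22. Nceh1, which hydrolyses cholesterol esters, rose from a mean of 7.39 in vehicle to 8.55 at 48.5 mg/kg (1.16 ± 0.26, 2.24-fold, adjusted p = 0.00563 in limma) and 8.73 at 485 mg/kg (1.34 ± 0.26, 2.54-fold, adjusted p = 1.8e-04), and its groups overlapped. Stard5, a sterol carrier, fell by 0.36 ± 0.07 (adjusted p = 3.8e-04), and Vldlr, a lipoprotein receptor, by 0.29 ± 0.09 (adjusted p = 0.0177), the last call lost without 485 mg/kg replicate 4 (adjusted p = 0.0707).

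Of 5 bile acid hydroxylases, 2 were called higher and 1 lower at 485 mg/kg, with a median of 0.23. Cyp8b1, which directs synthesis to cholic acid, fell from a mean of 11.64 in vehicle to 10.65 (-0.99 ± 0.20, 1.99-fold lower, adjusted p = 4.8e-04 in limma). Cyp39a1, an oxysterol hydroxylase, was 0.65 ± 0.11 higher (adjusted p = 3.7e-05). Cyp27a1, the sterol hydroxylase that opens the acidic pathway, was 0.23 ± 0.08 higher (adjusted p = 0.0389), a call lost without any 1 of vehicle replicates 1, 3, 4, 5 or 6 or 485 mg/kg replicates 2, 4 or 6.

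At 48.5 mg/kg, 4 of 33 related genes were called higher (12.1%, beside 4.03% of genes) and 0 lower (beside 1.08%): Tmem97, Dhdds, Nus1 and Nceh1. Tmem97 stood at 0.37 ± 0.08 (adjusted p = 0.00351 in limma), with all animals above vehicle, and Dhdds at 0.40 ± 0.11 (adjusted p = 0.0394). Nus1, a partner of Dhdds in dolichol synthesis, stood at 0.21 ± 0.06 (adjusted p = 0.0487). The Dhdds call was lost without any 1 of vehicle replicates 1, 2, 3 or 6 or 48.5 mg/kg replicates 2, 3, 5 or 6 (adjusted p up to 0.106), and the Nus1 call without any 1 of vehicle replicates 1, 2 or 5 or 48.5 mg/kg replicates 1, 4, 5 or 6 (up to 0.137). The count fell to 2 without vehicle replicate 1, vehicle replicate 2, 48.5 mg/kg replicate 5 or 48.5 mg/kg replicate 6. At 0.0485, 0.485 and 4.85 mg/kg limma called 0 related genes, with 2, 4 and 3 of 33 at an unadjusted p below 0.05.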

How the data were processed

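Liver RNA of 36 rats was measured on Affymetrix rat arrays, 1 array per animal. The deposited table holds log2 values that the authors made with RMA in the R package affy, per the submitters' processing notes, whose versions were not given. RMA forces a shared distribution on the arrays, so values are relative and a shift common to all transcripts would not show. Arrays have no read depth, and 6 per group limits the precision. Of 31099 probe sets, 57 controls were left out and 31042 were tested without a filter.

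Each gene was represented by its brightest probe set among those assigned to it alone. Other probe sets of members are given where the call differed, sign differences being counted. Other probe sets of related genes were not compared with the one used, except through the averaged probe sets. Groups came from the labels. The model was a one-way fit over all arrays in limma 3.58.1 (R 4.3.3; 30 residual and 5.26 prior degrees of freedom, eBayes, two-sided, Benjamini-Hochberg), in place of the study's R/maanova. The method was also run on simulated data, drawn with independent noise for each probe set. That run does not bear on counts among members, which varied together. The animals' correlations used Sqle in place of Hmgcs1, which has no probe set here. Group lows, medians and highs are given for members called against vehicle, and at most 3 called genes per related list and dose are named. The members and lists were chosen with earlier results of these data known. Alternatives were a replicate block, renormalization, another variance model, brighter probe sets, averaged probe sets, only the compared groups and arrays left out in turn.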

Additional observations from a re-analysis of the deposited data

Results flagged for a closer look

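Among 174 sets of 6 animals (29 genes in 6 groups), 6 had 1 animal far from the rest of its group by Dixon's test, and chance flags about 1 in 20. Insig1 was at 9.487 in 48.5 mg/kg replicate 5, where the others lay at 10.759 to 11.435, and Stard4 in the same animal was at 8.195 against 8.96 to 9.268. Insig1 was also low in 0.0485 mg/kg replicate 3, at 10.907 against 11.283 to 11.471. Hsd17b7 was high in 4.85 mg/kg replicate 1, at 9.787 against 9.074 to 9.32. Sc5d was low in 4.85 mg/kg replicate 5, at 11.2 against 11.386 to 11.479. Ebp was low in 485 mg/kg replicate 2, at 10.974 against 11.228 to 11.379.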

How the results depend on the processing

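Of 154 comparisons of a member's other probe sets with the one used, 39 differed in sign, none with either called, and 16 in call (Abca1, Fdft1, Nsdhl, Sc5d and Scap). No change of a member or related gene called against vehicle reversed its sign in any alternative. Of 4 members called at 48.5 mg/kg, 2 were called with probe sets averaged and 1 with only the compared groups in the fit. Averaging called 2 in place of 1 between 485 and 48.5 mg/kg. Tested against a minimum change of 1.5-fold, an alternative chosen after seeing the data, the calls were 0 for members in each comparison and 0 for related genes at 48.5 and 485 mg/kg, while 177 probe sets passed at 485 mg/kg. Leaving out 1 array at a time gave 3 to 5 members at 48.5 mg/kg, 4 to 7 at 485 mg/kg, 2 to 5 related genes at 48.5 mg/kg and 11 to 16 at 485 mg/kg. The cause was not tested. Sc5d at 48.5 mg/kg was also lost with only the compared groups (adjusted p = 0.0665), as was Lcat (0.0518). At 485 mg/kg, Fdft1 was lost with quantile normalization (0.0707) and with only the compared groups. Abca1 was lost there with the ordinary test (0.052) and with limma's trend and robust options. At 48.5 mg/kg, Fdft1 was lost with quantile normalization, the ordinary test, averaged probe sets and only the compared groups.

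The labels do not say that replicate numbers pair the animals, and the arrays did not meet the bar of every same-numbered pair correlating above 0.1: 19 of 90 did, beside 74 of 450 with different numbers, with medians of 0.01 and -0.00. The best match shared the number for 12 of 36 arrays, a hint from the data, not the design, and the count to be met by chance was not worked out. Set side by side by number, the synthesis median was 0.06 to 0.40 higher at 0.485 mg/kg than in vehicle in 6 of 6. This dose was picked after its means were seen, and no other dose was set beside vehicle by number. The labels do not make the numbers pairs, so the count carries no test. With the replicate block, limma called 4 members at 48.5 mg/kg, 7 at 485 mg/kg (Acat2 added), 1 between 485 and 48.5 mg/kg and 6 between 485 and 0.485 mg/kg (Mvd added). Dim probe sets (Soat1, Ggps1) limit what can be read for those genes.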
